A study of Caenorhabditis elegans with 6 samples.

Results

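The peaks of PHA-4 binding on chromosome X of Caenorhabditis elegans are all those that the series-level peak list places on X. They number 1941 of the 12404 peaks of that list, 15.6% (95% exact Clopper-Pearson interval 15.01 to 16.3%), and were chosen by chromosome alone, not by strength or by any other measured value. The lists of the 3 ChIP replicates, which serve as replicate support, placed 817 of 5320, 494 of 2802 and 340 of 1900 peaks on X in replicates 1, 2 and 3. The measurements are ChIP-seq libraries of L4 larvae of strain OP37, grown at 20 °C and crosslinked with 2% formaldehyde, from which a GFP-tagged PHA-4 was precipitated with antibodies to GFP. The series has 6 samples, 3 ChIP libraries and 3 Input libraries of total sheared DNA. All of them carry the unc-119(ed3) III mutation and the transgene wgIs37, which holds an unc-119(+) rescue beside pha-4::TY1::EGFP::3xFLAG. The genotype lists no mutation of pha-4 itself, and the strain is a single line made by bombardment, so the peaks are those of a tagged extra copy in whole animals. Values of the Input libraries were not analysed here.

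PHA-4 is the FoxA forkhead transcription factor of the worm. It is needed to specify the cells of the pharynx, the feeding organ, and it also acts in the gut and in other tissues after embryogenesis. Chromosome X differs from the autosomes, chromosomes I to V, in several known ways. Hermaphrodites have a pair of X chromosomes and males have only 1, a dosage compensation complex lowers X transcription in hermaphrodites, and genes on X are largely silent in the germ line. The labels conflict on sex, since the titles call the samples male while their sex field reads hermaphrodite. The copy number of X in these worms therefore cannot be told from the labels, and each difference between X and the autosomes given below carries that limit.

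Each peak has a position on genome build WS220, a width and a significance value between 0 and 0.001, which is the authors' own and is used here only to rank peaks within a list, rank 1 being the strongest. The lists give no read counts, so depth is unknown. Nothing in the labels tells whether the 3 replicates are separate worm cultures, so their spread may be technical. Differences between X and the autosomes were tested with an exact two-sided sign-flip permutation test over the 3 replicates, with X set against the autosomes inside each list. The smallest p that this exact permutation test can give with 3 replicates is 0.25, so no difference could pass 0.05. The 5 differences tested were adjusted together by the Benjamini-Hochberg method. No sequence or annotation of build WS220 was used here, and regions are given by position without gene names.

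Peaks were about as dense on X as on the autosomes in replicates 2 and 3 and less dense in replicate 1. X held 46.1, 27.9 and 19.2 peaks per Mb in replicates 1, 2 and 3, against 54.6, 28.0 and 18.9 per Mb on the autosomes. The series-level list held 110 per Mb on X and 127 on the autosomes. The mean log2 ratio of X to autosomes was -0.075 ± 0.15 (SD, n = 3; exact permutation test, p = 0.75, adjusted p = 0.75), and X was the denser in 1 of 3 replicates. Without replicate 1 the mean ratio turned positive, at 0.0087. In order of density X was number 5 of the 6 chromosomes in replicate 1 and at the series level, and number 4 in replicates 2 and 3. The share of X covered by peaks was close to that of the autosomes in every list. It was 2.42, 1.61 and 1.17% in replicates 1, 2 and 3 and 5.60% in the series-level list, against 2.47, 1.52, 1.06 and 5.31% on the autosomes.

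X carried the widest peaks of the 6 chromosomes by median in all 4 lists. The median width on X was 457, 493.5 and 529.5 bp in replicates 1, 2 and 3, against 363, 434 and 445 bp on the autosomes. No autosome reached the X value in any list: the autosomal medians ranged from 333 to 402 bp in replicate 1, from 408 to 454 bp in replicate 2 and from 414 to 499 bp in replicate 3. The nearest chromosomes were V in replicates 1 and 3 and I in replicate 2. Over the replicates the median was 493 ± 36.3 bp on X and 414 ± 44.5 bp on the autosomes (SD, n = 3 each). The log2 ratio was 0.26 ± 0.074 (SD, n = 3), positive in 3 of 3 replicates, and the exact permutation test gave p = 0.25 (adjusted p = 0.42), the smallest p being 0.25. In the series-level list the medians were 411 bp on X and 314 bp on the autosomes, where the 5 chromosomes ranged from 293 to 366 bp.

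**Figure D1:**
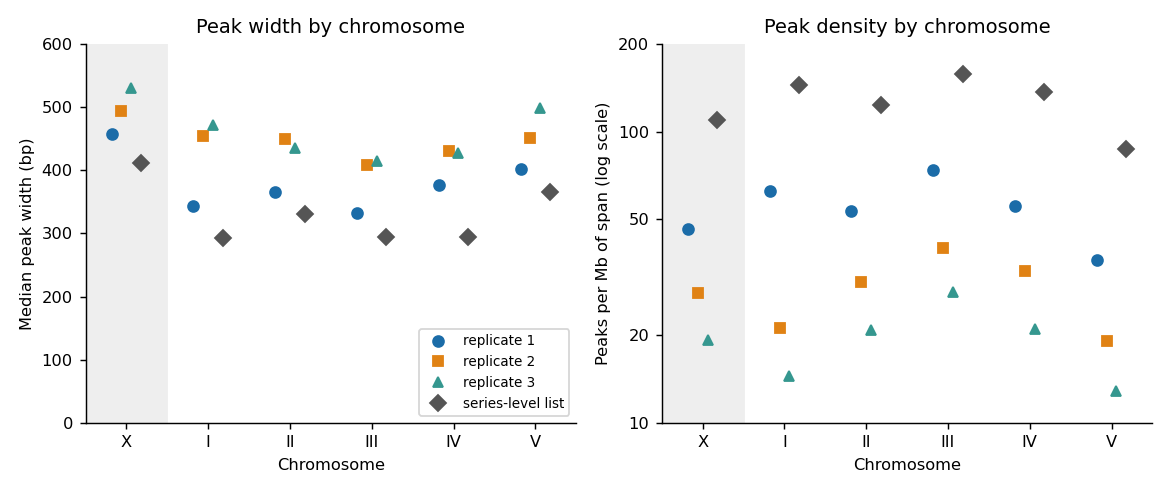
Median peak width in bp (left) and peaks per Mb of chromosome span on a log scale (right) for chromosome X, shaded, and chromosomes I to V; each point is 1 peak list. X has the largest median width in each of the 4 lists, from 411 bp at the series level to 529.5 bp in replicate 3, while its density lies within the range of the autosomes.

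The difference in width ran through most of the distribution and was not seen at its extreme end. In the series-level list the lower quartile was 247 bp on X and 178 bp on the autosomes, the upper quartile 654 and 510 bp, the 90th percentile 982 and 807 bp, and the 99th percentile 2238 and 2259 bp. Peaks of at least 1200 bp made up 6.08% of X and 4.06% of the autosomal peaks at the series level. In replicates 1, 2 and 3 these shares were close, at 3.30, 4.66 and 5.29% on X and 3.24, 4.42 and 5.19% on the autosomes. Peaks under 20 bp made up 2.06% of X (40 of 1941) and 4.07% of the autosomal peaks (426 of 10463) at the series level. The broadest peaks of the series were not on X. The widest X peak of the series-level list spanned 4022 bp, from 11790567 to 11794588, and 23 autosomal peaks were wider, up to 34296 bp. In replicates 1, 2 and 3 the widest X peaks spanned 3950, 2819 and 2511 bp, and the widest autosomal ones 12909, 19846 and 12789 bp.

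Significance rank and width go together, so widths were also compared within classes of like rank, a comparison chosen after the medians were seen. Each list was divided into 10 rank classes of equal size over the whole genome. In the series-level list the X median was larger than the autosomal one in 10 of 10 classes, by 49.5 to 139 bp. In the best class, with 201 X peaks, the medians were 1039 bp on X and 947 bp on the autosomes, and in the last class, with 202 X peaks, 196.5 and 147 bp. In the replicates X had the larger median in 10, 9 and 9 of 10 classes for replicates 1, 2 and 3. The exception in replicates 2 and 3 was the best class, where the X medians of 876 and 908 bp lay below the autosomal ones of 982.5 and 1106 bp. The mean log2 ratio over matched classes was 0.20 ± 0.091 (SD, n = 3; exact permutation test, p = 0.25), against 0.26 without matching. It was 0.21 ± 0.016 among peaks found in another replicate and 0.27 ± 0.059 among those found in no other (SD, n = 3 each; exact permutation test, p = 0.25 for both).

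Along the chromosome, X peaks showed little of the central excess seen on the autosomes. The arms of worm autosomes recombine often and their centres hold many conserved genes, a contrast that is weaker on X. The central 50% of the span held 52.4, 49.2 and 50.9% of X peaks in replicates 1, 2 and 3, against 58.3, 60.2 and 61.7% of autosomal peaks. The difference was -9.26 ± 2.88 percentage points (SD, n = 3), negative in 3 of 3 replicates, and the exact permutation test gave p = 0.25 (adjusted p = 0.42), the smallest p being 0.25. X had the lowest central share of the 6 chromosomes in all 4 lists, although chromosome I all but equalled it in replicate 1, with 52.4%. In the series-level list the shares were 51.5% on X and 55.8% on the autosomes, where chromosomes I and III, with 52.8 and 53.4%, lay close to X. With only the better-ranked 50% of each list the difference was -13.5 ± 3.35 points (SD, n = 3; exact permutation test, p = 0.25).

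Counts in 20 equal segments of X, each 5% of its span, varied less than on other chromosomes. They ranged from 26 to 56 peaks in replicate 1, from 11 to 37 in replicate 2, from 7 to 28 in replicate 3 and from 69 to 129 in the series-level list. Their coefficient of variation was 0.19, 0.26 and 0.29 in replicates 1, 2 and 3 and 0.15 at the series level, the lowest of the 6 chromosomes in each list. In replicate 2 chromosome III was close, at 0.27. This is a description without a test, and the coefficient also grows as a list gets shorter. Across the 20 segments, Pearson's r of the X counts was 0.74 for replicates 1 and 2, 0.52 for replicates 1 and 3 and 0.67 for replicates 2 and 3. Spearman's rho was 0.76, 0.48 and 0.63 for the same pairs. On chromosomes I to V rho ranged from 0.66 to 0.93, from 0.58 to 0.90 and from 0.69 to 0.92. By rho X was thus the lowest of the 6 chromosomes in both pairs with replicate 3. By Pearson's r chromosome I was lower than X for replicates 1 and 2 (0.46) and for replicates 1 and 3 (0.40). Neighbouring segments share libraries and depth, and the coefficients are given without a p.

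**Figure D2:**
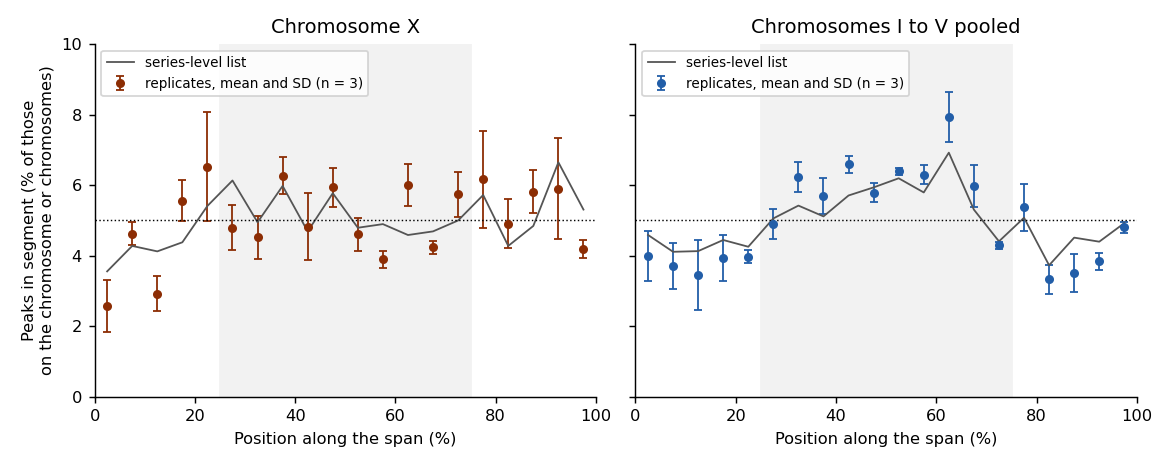
Share of peaks, in percent, in each of 20 segments along the span of chromosome X (left) and of chromosomes I to V pooled (right); points and bars are the mean and SD of the 3 replicates, the line is the series-level list, the dotted line marks an even 5% and the shaded part is the central 50%. On X 50.8% of the replicate peaks lie in the shaded part, against 60.1% on the autosomes. Single X segments depart from the dotted line, such as the first, with 3.43, 2.23 and 2.06% in replicates 1, 2 and 3.

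The left end of X was the sparser one. The first 10% of the span held 69, 33 and 22 peaks in replicates 1, 2 and 3 and the last 10% held 77, 58 and 31. At the series level the counts were 152 and 232, or 7.83 and 12.0% of the X peaks. The segment with the most series-level peaks, 129, ran from 15943257 to 16828992 and held 45, 37 and 16 peaks in replicates 1, 2 and 3. The segment from 1771473 to 2657209 was poor in every replicate, with 26, 16 and 8 peaks, and held 80 at the series level. At finer scale, the densest 100-kb windows of the series-level list began at 8000001, with 29 peaks, and at 4400001, with 26. These windows held 14, 9 and 7 and 12, 7 and 6 peaks in replicates 1, 2 and 3, against medians over X of 4, 2 and 1 per window. Denser windows lay on the autosomes, with up to 36 peaks at the series level and up to 25, 22 and 18 in replicates 1, 2 and 3. The autosomal medians were 5, 2 and 1 per window in the replicates.

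The longest stretch of X without a peak in the series-level list ran for 146 kb from 147103 to 293239. The next ran for 139 kb from 1670764 to 1810223, and neither held a peak of any replicate. The longest stretches of chromosomes I to V in that list were 119, 112, 95.9, 97.7 and 261 kb. Only 1 of 177 whole 100-kb windows of X was empty at the series level, while 6, 22 and 44 were empty in replicates 1, 2 and 3. On the autosomes 6 of 822 windows were empty at the series level and 40, 137 and 246 in replicates 1, 2 and 3. The longest peak-free stretch of replicate 3 on X ran for 599 kb, from 1627495 to 2226944. It held 7 peaks of replicate 1, 5 of replicate 2 and 29 of the series-level list, so it was not empty in the other lists. The longest stretch of replicate 1, 218 kb from 1627506 to 1845418, lay inside it.

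The share of X among the strongest peaks depended on the cut. Of the 10 best peaks of each whole list, 2 lay on X in each replicate (20%) and 1 in the series-level list (10%). Of the 50 best peaks of each whole list, 15, 16 and 16 lay on X in replicates 1, 2 and 3, or 30, 32 and 32%, and 11 (22%) in the series-level list, while X makes up 17.7% of the genome span. These cuts were chosen after the ranks were seen. By the best 200 the X count was 38, 39 and 48 in replicates 1, 2 and 3 and 39 at the series level, 19 to 24% of the peaks. For the best 10% of each list 10.5, 10.9 and 14.1% of X peaks qualified in replicates 1, 2 and 3, against 9.90, 9.79 and 9.10% of autosomal peaks. Chromosome III had a larger share than X in replicates 1 and 2, with 12.6 and 11.3%, and at the series level, with 12.8%. The share over all chromosomes was 10, 9.99 and 10% by construction. The difference was 2.26 ± 2.40 percentage points (SD, n = 3), positive in 3 of 3 replicates (exact permutation test, p = 0.25, adjusted p = 0.42, smallest p 0.25), and without replicate 3 it was 0.88. In the series-level list 10.4% of X peaks and 9.93% of autosomal peaks were among the best 10%, where the share over all chromosomes is 10%.

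The strongest X region lay near the right end, from 16929196 to 16932046, and was the first X peak of every list. It was 2809 bp wide in replicate 1 and 2819 bp in replicate 2, whereas replicate 3 divided it into 2 peaks, the better of them 1624 bp wide. The second region, from 14525288 to 14526455, ranked 8, 10 and 7 in the whole lists of replicates 1, 2 and 3 and was 1139, 1004 and 906 bp wide. The third, from 11093568 to 11094701, ranked 18, 12 and 11 and was 1087, 920 and 884 bp wide. These 3 regions were the best 3 on X in the same order in all 3 replicates and at the series level.

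The next regions kept high ranks, but their order on X shifted between replicates. Ranks of 33, 18 and 19 in replicates 1, 2 and 3, and of 25 at the series level, went to the region from 1503325 to 1505232. Among X peaks alone it was number 11, 5 and 4 in replicates 1, 2 and 3 and number 4 at the series level. The region from 4147374 to 4149355 had ranks of 22, 20 and 29, and that from 8035713 to 8036979 ranked 24, 17 and 33. Regions at 2996288 to 2997545 and at 9465321 to 9466316 ranked 20, 22 and 28, and 23, 27 and 20. All 15 best X peaks of the series-level list, which rank 2 to 59 in that list, were called in all 3 replicates. Their replicate ranks ran from 3 to 62 in replicate 1, from 3 to 138 in replicate 2 and from 4 to 134 in replicate 3, with medians of 28, 22 and 29. In the whole best rank class of the series-level list, all 3 replicates called 80.1% of X and 68.5% of autosomal peaks.

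The 15 strongest X peaks were 785 to 4022 bp wide at the series level. For description only, the 5 under 1000 bp are called compact and the 8 of at least 1200 bp broad. Compact ones had similar limits in each replicate. The region from 13700387 to 13701171 was 764, 713 and 684 bp wide in replicates 1, 2 and 3, with starts within 28 bp of each other and ends within 108 bp. The region from 16056024 to 16056839 was 703, 812 and 690 bp wide, with starts within 155 bp and ends within 39 bp. Some of the broad ones differed more, while that from 8035713 to 8036979 had starts within 83 bp and ends within 73 bp. The region from 11790567 to 11794588 was a single peak of 3950 bp in replicate 1 (rank 32) and of 2438 bp in replicate 3 (rank 26). In replicate 2 it was divided into 2 peaks, the better being 1427 bp wide with rank 138. The region from 6741109 to 6744872 held 2 peaks in each replicate, the better of them 1326, 1502 and 1654 bp wide with ranks 62, 64 and 134.

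**Figure D3:**
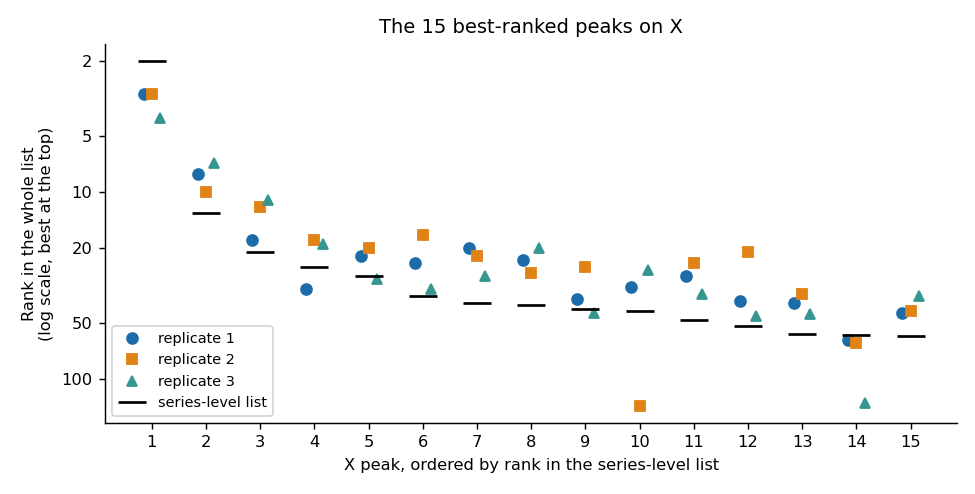
Rank in the whole list, on a log scale with the best at the top, of the 15 best-ranked X peaks of the series-level list; points are the best overlapping peak of each replicate and bars the series-level rank. Replicate ranks lie between 3 and 62 but for the tenth peak in replicate 2 (138) and the fourteenth in replicates 2 and 3 (64 and 134).

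Below these, some strong X regions ranked very unevenly between replicates, whose lists differ in length. The 5 most uneven of the best 100 X peaks were picked for that unevenness, so their ranks are a description. A region from 16676852 to 16678434, ranked 192 at the series level, had rank 61 in replicate 3 but 716 and 2725 in replicates 1 and 2. Its best peak was 1466 bp wide in replicate 3, 644 bp in replicate 1 and 290 bp in replicate 2. A region from 15273719 to 15275583 ranked 105 in replicate 3 and 2729 and 1005 in replicates 1 and 2. The reverse was seen from 11406430 to 11407161, with rank 114 in replicate 1 and ranks 2224 and 487 in replicates 2 and 3.

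Support of the series-level X peaks by the replicates was strong among the best-ranked peaks and nearly absent among the last. The series-level list may share reads with the replicate lists, so this support may not be independent. Of the 1941 peaks, 945 (48.7%, 95% interval 46.4 to 50.9%) overlapped a peak of at least 1 replicate by at least 1 bp, against 45.9% of autosomal peaks (45.0 to 46.9%) and 46.3% over all chromosomes. At least 2 replicates supported 406 (20.9%, 19.1 to 22.8%), against 18.0% on the autosomes (17.2 to 18.7%) and 18.4% over all. All 3 supported 198 (10.2%, 8.89 to 11.6%), against 8.19% on the autosomes (7.67 to 8.73%) and 8.51% over all. X was not alone at this level. On chromosome III the shares were 49.8, 20.8 and 10.6% for at least 1, at least 2 and all 3 replicates, whereas on chromosome I they were 41.7, 13.1 and 5.08%. The intervals cover counting error only and treat peaks as independent. Within the same rank class X stood above the autosomes in at least 2 replicates for the first 5 of 10 classes. The gap was widest in the second class, with 72.9% on X (65.8 to 79.3%) and 60.2% on the autosomes (57.2 to 63.2%), and in the third, with 30.8% (24.4 to 37.8%) and 20% (17.6 to 22.6%). X peaks in these classes were also wider, with medians of 708 and 579 bp against 569 and 449 bp. The part of width in the support was not tested.

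**Figure D4:**
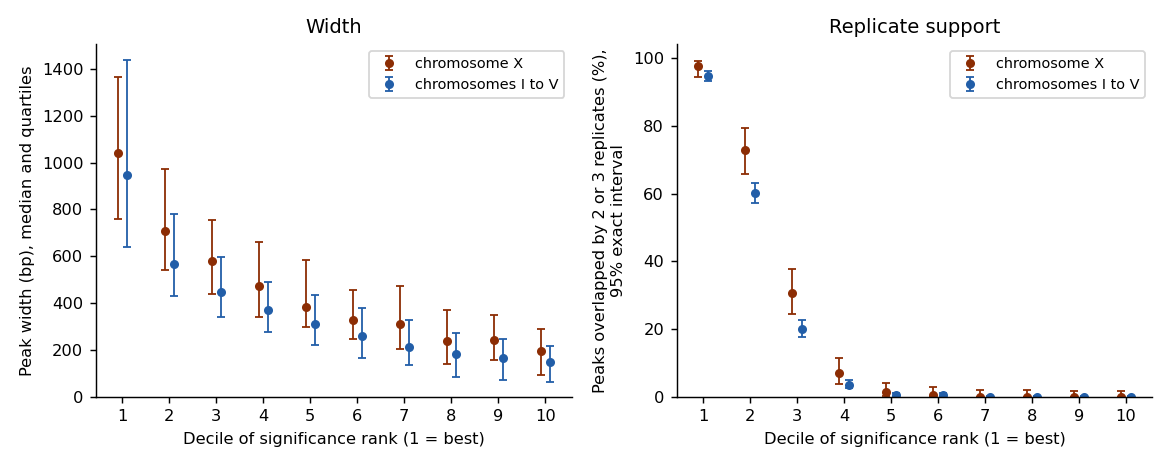
Peak width in bp, median and quartiles (left), and the percentage of peaks overlapped by 2 or 3 replicates with its 95% exact interval (right), by decile of significance rank in the series-level list, for chromosome X and for chromosomes I to V. In the second decile X has a median width of 708 bp and 72.9% support, against 569 bp and 60.2% on the autosomes, and from the seventh decile on neither part has a peak with such support.

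Which replicates gave the support followed the length of their lists. Replicate 1 alone supported 363 X peaks, replicate 2 alone 130 and replicate 3 alone 46. Replicates 1 and 2 together supported 130, replicates 1 and 3 supported 58, and replicates 2 and 3 only 20. X peaks with more replicates behind them were wider and better ranked. The median width was 286.5, 454, 638.5 and 957 bp for X peaks with 0, 1, 2 and 3 replicates, and the median rank 8907.5, 4697, 2135 and 626. The best X peak without support lay from 7457789 to 7458747, was 959 bp wide and ranked 1792. The nearest peaks of replicates 1, 2 and 3 were 13054, 42214 and 18425 bp away. The next, from 11469432 to 11470619 with rank 1810, lay within 514 to 769 bp of a peak of each replicate.

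Of the 100 best X peaks, 94 were called in all 3 replicates and 99 in at least 2. The exception lay from 10688762 to 10690716, ranked 514 at the series level and was called in replicate 1 alone, there with rank 2811. The largest of the other 5 spanned 3333 bp from 7951372 to 7954704 and had no peak in replicate 2. Strong autosomal peaks were widely called too. In the best of the 10 rank classes, at least 2 replicates supported 97.5% of X and 94.8% of autosomal peaks. Between replicates, 48.6, 72.1 and 84.1% of the X peaks of replicates 1, 2 and 3 overlapped a peak of at least 1 other replicate, against 41.7, 73.5 and 82.6% of autosomal peaks and 42.8, 73.2 and 82.9% over all chromosomes. The difference was 2.31 ± 4.20 percentage points (SD, n = 3; exact permutation test, p = 0.5, adjusted p = 0.62), less than the spread between replicates.

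Where X peaks of 2 replicates overlapped one to one, the overlap itself limits how far apart they can lie. The median distance between midpoints was 89.75 bp for the 318 such pairs of replicates 1 and 2, 76.5 bp for the 245 of replicates 1 and 3 and 84 bp for the 205 of replicates 2 and 3. On the autosomes it was smaller for each pair, at 73.5, 68.75 and 72 bp. The 90th percentile went the other way, at 249, 223 and 252 bp on X and 258, 257 and 261 bp on the autosomes. Spearman's rho of the ranks of the paired peaks was 0.55, 0.61 and 0.56 on X and 0.43, 0.53 and 0.49 on the autosomes, for the same pairs. Peaks share their libraries, and no p is given across them.

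Merged over the 3 replicate lists, X held 1019 regions, of which 407 (39.9%, 36.9 to 43.0%) had peaks of at least 2 replicates. The share was 35.1% on the autosomes (33.8 to 36.4%) and 35.8% over all chromosomes. Chromosome I had the lowest share, 28.0%, while chromosomes II to V had 36.1 to 37.5%. For all 3 replicates the share was 18.9% on X (16.6 to 21.5%), against 16.03% on the autosomes (15.06 to 17.04%) and 16.5% over all chromosomes. Chromosome III had 19.0% and chromosome I 10.8%. Reproduced regions, those of at least 2 replicates, had a density of 23.0 per Mb on both X and the autosomes. Those of all 3 replicates, 193 on X, had a density of 10.9 and 10.5 per Mb. The median width of reproduced regions was 730 bp on X and 627 bp on the autosomes, where the 5 chromosomes ranged from 612 to 656 bp. Regions of 1 replicate had a median of 387 bp on X and 317 bp on the autosomes. The widest reproduced X region spanned 3950 bp from 11790591 to 11794540. The next spanned 3321 bp from 2968894 to 2972214.

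Runs of neighbouring peaks, joined across gaps of at most 2 kb, reached 10 kb at 11 places on X in the series-level list and at 0 places in the replicate lists. The autosomes had 58 such runs at the series level and 14, 4 and 3 in replicates 1, 2 and 3. Chromosome I likewise had 0 in the 3 replicate lists, and chromosome III had 0 in replicates 2 and 3. Per Mb the series-level runs numbered 0.62 on X, within the autosomal range of 0.43 to 1.09. X runs were short. The longest, from 1443314 to 1457335, measured 14.0 kb, against 19.1 to 37.9 kb for the longest run of each autosome. In replicates 1, 2 and 3 the longest X runs were 8888, 9104 and 6763 bp, and in replicate 2 the longest on chromosomes I and III, 6.24 and 7.12 kb, were shorter than on X. The count of 11 depends on the joining rule. It was 3 with gaps of at most 1 kb, 96 with gaps of at most 5 kb and 5 when only peaks overlapped by a replicate were joined.

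All 11 X runs held at least 1 peak of each replicate, and the 3 replicates had close median coverage. The runs come from the series-level list, which may share reads with the replicate lists. No such count is given here for the autosomal runs, so it cannot be told whether X differs from them. Series-level peaks covered 40.2 to 86.1% of a run (median 62.4%), and replicates 1, 2 and 3 covered medians of 26.1, 27.2 and 24.9%. The most densely covered run, from 4139097 to 4149355, contains the fifth strongest X peak. It was covered for 86.1% at the series level and for 68.3, 50.6 and 40.4% in replicates 1, 2 and 3, with 4 peaks in each list. The run from 6737543 to 6751362 held only 4 broad peaks at the series level, with ranks between 58 and 453, but 7, 6 and 6 narrower ones in replicates 1, 2 and 3. The run from 2587080 to 2597959 stood at the weak end. Its best peak ranked 2232, and the replicates held 2, 1 and 1 peaks in it, covering 12.1, 6.03 and 5.38%.

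**Figure D5:**
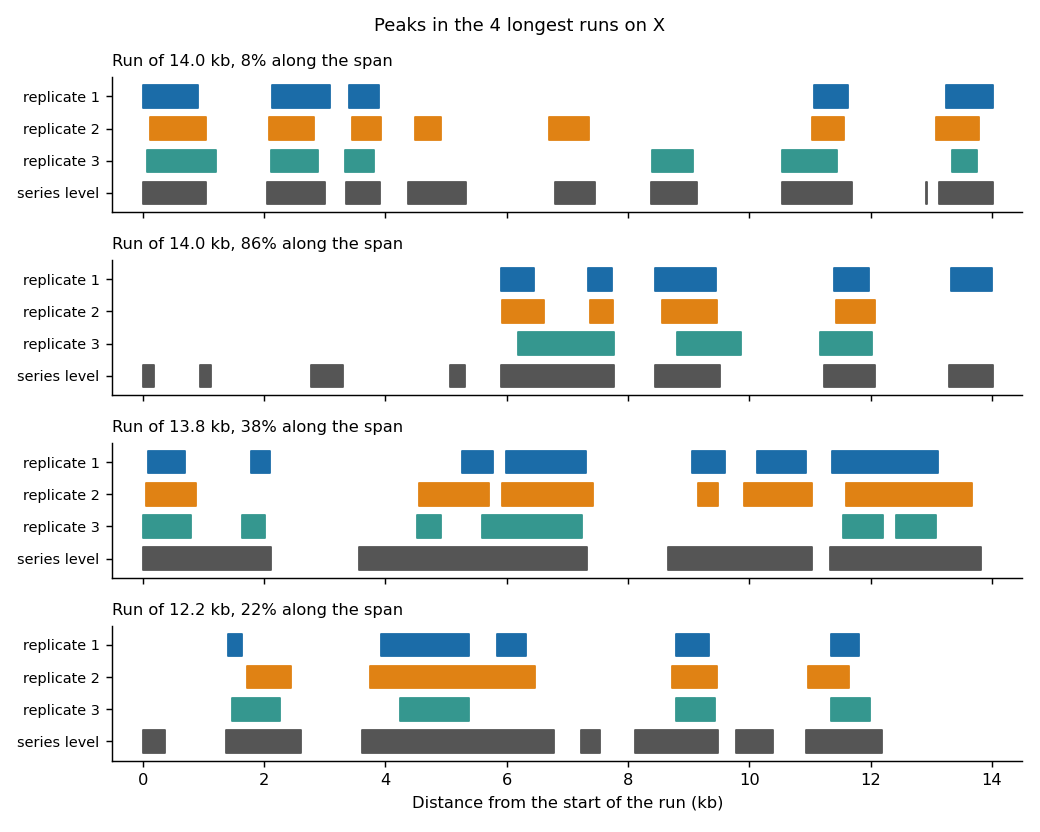
Peaks of the 3 replicates and of the series-level list in the 4 longest runs on X, in kb from the start of each run; each bar is 1 peak drawn to scale. In the run of 13.8 kb, 4 series-level peaks stand over 7, 6 and 6 peaks of replicates 1, 2 and 3, and the left part of the run placed 86% along the span has series-level peaks without any replicate peak.

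Counted over X as a whole, the lists also differed in how finely they divide peaks. At the series level 32, 17 and 13 X peaks each overlapped more than 1 peak of replicates 1, 2 and 3, up to 3 in replicates 1 and 3. They were among 749, 478 and 322 X peaks that overlapped any peak of replicates 1, 2 and 3. In the other direction 4, 6 and 0 replicate peaks overlapped more than 1 series-level peak. No such counts are given here for the autosomes.

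Few replicate peaks on X were absent from the series-level list. They numbered 38 of 817 in replicate 1 (4.65%), 5 of 494 in replicate 2 and 4 of 340 in replicate 3. In replicate 1 the best-ranked of them, from 1527096 to 1527858, had rank 1252 and lay 805 bp from a series-level peak, and in replicate 3, from 11787177 to 11787518, rank 1158 and 2234 bp. Of the 47 in all, 2 were called in another replicate, 1 from the list of replicate 1 and 1 from that of replicate 3. Peaks were counted list by list, so these may be a single site. Replicate peaks overlapped the series-level list for 95.3, 98.99 and 98.8% on X in replicates 1, 2 and 3, against 91.6, 97.1 and 98.5% on the autosomes and 92.2, 97.5 and 98.5% over all chromosomes. The difference was not tested, and the series-level list may share reads with the replicate lists.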

How the data were processed

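Peaks of GFP-tagged PHA-4 were analysed in 3 ChIP libraries, grouped by sample title. The authors called peaks with PeakSeq on build WS220, per the file headers and source column, in a list for each replicate and a series-level list. The aligner, the filters and the making of the series-level list are not given in the sources used here. A single deposited value per peak has the range of a p-value; whether it is adjusted is not stated, and it was used only for ranks. Peak numbers without a line, 93 at the series level and 4 in replicate 1, were not analysed here. Depth is unknown.

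Overlap meant at least 1 bp. Counts on X matched bedtools 2.31.1 in 12 of 12 directions. Spans ended at the last peak of any list, 17.7 Mb for X and 82.5 Mb for the autosomes. Medians, shares, exact intervals and sign-flip tests came from scripts in Python 3.11.15 (pandas 2.3.3, numpy 2.4.6, scipy 1.17.1), whose functions were tested on simulated data. Regions were named by rule: the 15 best X peaks, runs, the best unsupported peaks, dense windows and empty stretches; the unevenly ranked, broadest and exceptional peaks were picked after their values were seen. Members and measures were chosen with earlier results of these data known. The alternatives changed overlap, rank cut, width cut, autosome set, centre, run gap and replicates.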

Additional observations from a re-analysis of the deposited data

How the results depend on the processing

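Of 72 alternative values, 23 were chosen after the data were seen. For width, central share, share of best peaks and overlap between replicates, the difference between X and the autosomes kept its sign in all of them. With 1 replicate left out, the log2 width ratio ranged from 0.22 to 0.29, the central share difference from -10.9 to -8.39 points, the best-peak difference from 0.88 to 3.08 points and the overlap difference from 1.34 to 3.76 points. The log2 density ratio was -0.23 without chromosome V and changed sign, to 0.052, without chromosome III, and ranged from -0.12 to 0.0087 with 1 replicate left out. Series-level X peaks supported by at least 1 and at least 2 replicates were 42.3% and 15.2% with a reciprocal overlap of 50%, and 30.0 to 46.3% and 11.2 to 16.9% with 1 replicate left out, where fewer lists remain. Reproduced X regions numbered 205 in the better-ranked 50% of each list, 193 with all 3 replicates required and 216 to 327 with 1 replicate left out, all by construction. X runs numbered 3, 96 and 5 with a 1-kb gap, a 5-kb gap and supported peaks only. No paired analysis was possible because Input has no peak list here to pair with ChIP by replicate number; the pairing in the tests is of X with the autosomes inside a list. Unknown depth and 3 replicates limit every comparison.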
